A study of Rattus norvegicus with 42 samples.

Results

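Amacrine cells are inhibitory interneurons of the inner retina, and 9 genes of their transmitters and identity were followed here in rats given damaging light, an injection into the eye, or both. The genes were taken by name from the count matrix: Gad1 (ENSRNOG00000000007), Gad2 (ENSRNOG00000018200), Slc32a1 (ENSRNOG00000015393), Slc6a9 (ENSRNOG00000019484), Chat (ENSRNOG00000025012), Calb2 (ENSRNOG00000016977), Tfap2a (ENSRNOG00000015522), Tfap2b (ENSRNOG00000011823) and Pax6 (ENSRNOG00000004410). They are 9 of 32623 genes in the matrix, and all 9 passed the filter on low counts that left 18094 genes for testing.

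PolyA RNA of the retina of adult rats, kept on a 12 h light/dark cycle, was sequenced as paired 150 bp reads. Control rats (n = 5) were untreated, and light damage rats (n = 7) were exposed to 15000 lux for 24 h. Vehicle rats (n = 5) had an injection of vehicle into the vitreous, nanoceria rats (n = 4) had 1 mM cerium oxide nanoparticles there, and vehicle plus light (n = 5) and nanoceria plus light (n = 5) rats had the same injections and the light. Nanoceria are studied as scavengers of reactive oxygen, and the comparisons ask how light and injection change the retina. The sources used here give neither the strain, nor the interval from injection to light or from light to dissection, nor whether 1 or both retinas of a rat were used. Of 42 labelled samples, 11 were not analysed here.

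Total counts per library were 25158407 to 182162368, with a median of 106887932. The shallowest library, light damage 1, still held 378 reads of Chat, the fewest of any member in any library. Light damage 1 was also the library most unlike its group. Its chi-square per degree of freedom was 1493 to 1851 with the other light damage libraries, against at most 608 for every other pair of one group. Why it differed was not tested. The share of libraries with high Y-linked transcripts ran from 1 of 5 in vehicle to 4 of 5 in control, so the sexes were not evenly spread, and a term for sex was an alternative. Libraries vehicle 4 and 7, and light damage 4 and 7, differed far less from each other (chi-square per degree of freedom 4.51 and 10.9) than any other pair of one group (at least 92.2). The labels call all of them biological replicates. They were kept apart as labelled, and the n of each group counts libraries. Their counts differed by more than sampling noise, which does not show that they came from separate rats. If a pair came from 1 rat, the SEs and p-values of the main fit may be too small. With each pair summed to 1 library, 0 of 9 members passed edgeR's test in every comparison described here. In limma-voom with a quality weight per library, as used throughout, and the pairs summed, Slc32a1 passed in nanoceria against control (-0.47, adjusted p = 0.0482). The rod markers summed to between 33911 and 63965 CPM in libraries without light, as in retina, and to between 5416 and 24287 CPM with light. CPM here are counts relative to the library size after TMM scaling.

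Inhibition in the retina is built on GABA and glycine. Gad1 and Gad2 encode the enzymes that make GABA from glutamate, and Slc32a1 encodes the vesicular transporter that loads GABA or glycine into synaptic vesicles. Slc6a9 encodes the glycine transporter GlyT1, which marks glycinergic amacrine cells. Chat makes acetylcholine and in the retina marks starburst amacrine cells, which shape direction selectivity. Calb2 encodes the calcium-binding protein calretinin, found in AII and other amacrine cells and in ganglion cells. Tfap2a and Tfap2b encode AP-2 transcription factors of amacrine cells, and Pax6 is a homeobox factor of the eye field that adult amacrine, ganglion, horizontal and Müller cells keep. Several of the members are therefore not confined to amacrine cells: horizontal cells can use Gad1, Gad2, Slc32a1 and Tfap2b, and Pax6 is also made in the ciliary body and iris. In whole retina, fewer cells of a type and less RNA per cell cannot be told apart.

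No member passed the test for light or for injection. Across 13 comparisons (9 between pairs of groups, 3 of whether the light response differed between injection states, and light averaged over the 3 injection states), 0 of 117 tests of a member passed an adjusted p under 0.05 in edgeR's quasi-likelihood test, with the Benjamini-Hochberg adjustment over 18094 genes. The same test called 22.5% of all genes for light damage against control (11.9% higher and 10.6% lower), 16.8% for vehicle plus light against vehicle (9.67% higher, 7.17% lower) and 13.9% for nanoceria plus light against nanoceria (8.15% higher, 5.78% lower). Averaged over the 3 injection states, light changed 37.1% of all genes, 20.5% higher and 16.6% lower. The split moved with the scaling. Library size alone gave 2371 higher and 1100 lower for light damage against control (2147 and 1927 with TMM, the scaling used throughout), 2434 and 688 after vehicle (1749 and 1297), 1480 and 671 after nanoceria (1474 and 1046) and 5036 and 1836 for the average (3715 and 3000). After nanoceria, DESeq2 scaling gave 1115 higher and 1306 lower, and scaling to horizontal, bipolar and ganglion cell markers gave 343 and 573. A p that misses the threshold does not show that the level stayed the same, so intervals are given with the estimates.

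Rod genes show what the light did in the same libraries. Of 15 rod markers, 13 fell with light alone, 11 after vehicle and 12 after nanoceria, with median log2 fold changes of -1.63, -1.69 and -1.51. For the 9 amacrine genes the medians were 0.01, -0.01 and 0.08, beside -0.01, 0.02 and 0.04 over all genes tested. The 95% intervals of all 9 members together spanned -0.46 to 0.77 for light damage against control, which is 0.727-fold to 1.70-fold. Of the markers of other inner neurons, 0 of 12 ganglion cell genes passed in any of the 3 comparisons, 2 of 6 horizontal cell genes fell in each, and of 11 bipolar genes 3, 2 and 1 rose and 1, 1 and 0 fell. The member intervals spanned -0.47 to 0.52 after vehicle and -0.34 to 0.65 after nanoceria. Averaged over injection states, the span narrowed to -0.26 to 0.47, or 0.833-fold to 1.39-fold.

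**Figure D1:**
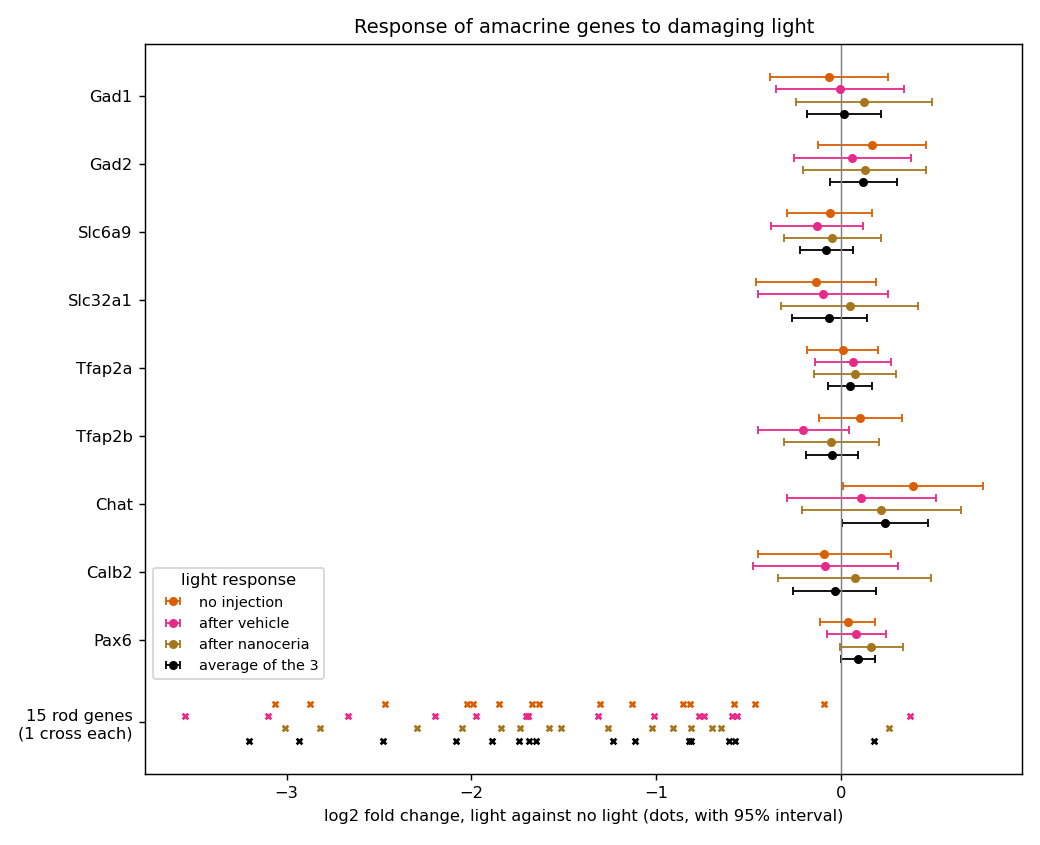
Log2 fold change of each amacrine gene with damaging light (dots, horizontal bars for the 95% interval of the edgeR fit) without injection, after vehicle, after nanoceria and averaged over the 3, with 15 rod marker genes as crosses (fold change only) in the lowest row. The amacrine medians are 0.01, -0.01 and 0.08 in the 3 light comparisons, and the rod medians are -1.63, -1.69 and -1.51.

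Gad1 and Gad2, which make GABA, had levels that overlapped between all groups. Gad1 was at 325, 283, 245, 206 and 174 CPM in control 1, 2, 4, 5 and 6, and at 201 (lowest), 228 (median) and 289 (highest) CPM in light damage. In vehicle 1, 2, 3, 4 and 7 it was at 222, 242, 242, 172 and 169 CPM, and in vehicle plus light 1, 2, 3, 4 and 6 at 231, 208, 206, 139 and 259 CPM. Nanoceria 1, 2, 3 and 5 had 205, 188, 198 and 173 CPM, and nanoceria plus light 1 to 5 had 148, 238, 209, 174 and 271 CPM. Control 1 was the highest of all libraries for Gad1 and vehicle plus light 4 the lowest, and no neighbouring groups in the order of means differed by more than the larger SD. With light, Gad1 differed by -0.06 ± 0.16 (log2, SE; adjusted p = 0.831 in edgeR) without injection, -0.01 ± 0.17 after vehicle and 0.12 ± 0.18 after nanoceria.

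Gad2, whose enzyme sits at synaptic terminals, ranged without light from 54.967 to 95.9 CPM (control), 70.9 to 92.4 CPM (vehicle) and 66.6 to 81.3 CPM (nanoceria). With light the ranges were 74.4 to 106 CPM without injection, 61.5 to 95.1 CPM after vehicle and 49.9 to 96.0 CPM after nanoceria. Light gave 0.17 ± 0.14, 0.06 ± 0.15 and 0.13 ± 0.16 in the 3 states, with a 95% interval of -0.06 to 0.30 for the average. All 3 estimates were positive, and none passed.

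Slc32a1, the vesicular transporter, was at 131, 120.3, 119.7, 92.6 and 66.4 CPM in control and 79.6 (lowest), 91.9 (median) and 126 (highest) CPM in light damage. It was at 77.6, 113, 103, 76.3 and 77.5 CPM in vehicle and 92.2, 96.2, 71.3, 64.2 and 94.4 CPM in vehicle plus light. In nanoceria it was at 86.2, 70.6, 78.9 and 79.5 CPM and in nanoceria plus light at 51.5, 90.8, 80.4, 85.1 and 99.3 CPM. Control 1, 2, 4 and 5 lay above all nanoceria libraries while control 6 lay below them, so the groups overlapped. Light gave -0.14 ± 0.16, -0.10 ± 0.17 and 0.05 ± 0.18, within the spread between replicates. The largest difference of any member in any comparison between pairs of groups was that of Slc32a1 in nanoceria against control, at -0.43 ± 0.18 (interval -0.80 to -0.05, edgeR adjusted p = 0.263). In limma-voom it was -0.47 and passed (adjusted p = 0.0368).

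Slc6a9, the glycine transporter, had group means of 364 ± 66.8 CPM (SD, n = 5) in control, 349 ± 40.8 CPM (n = 7) in light damage and 348 ± 25.1 CPM (n = 5) in vehicle. They were 318 ± 44.2 CPM (n = 5) in vehicle plus light, 333 ± 21.7 CPM (n = 4) in nanoceria and 322 ± 53.030 CPM (n = 5) in nanoceria plus light. All 3 light estimates were negative and small, at -0.06 ± 0.11, -0.13 ± 0.12 and -0.05 ± 0.13, and the averaged interval was -0.22 to 0.06.

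Chat was the member with the largest estimate under light. Its level was 19.0, 16.7, 16.5, 12.5 and 8.82 CPM in control and 16.8 (lowest), 17.6 (median) and 26.8 (highest) CPM in light damage. It was 13.6, 18.4, 18.5, 12.1 and 13.2 CPM in vehicle and 21.3, 20.3, 12.7, 12.5 and 15.2 CPM in vehicle plus light. Nanoceria libraries had 14.7, 12.6, 12.7 and 13.0 CPM and nanoceria plus light libraries 8.91, 16.3, 16.8, 17.5 and 17.8 CPM. Light damage 6 was the highest library, control 6 and nanoceria plus light 1 were the lowest, and each lit group overlapped its unlit partner. The estimates were 0.39 ± 0.18 without injection (interval 0.01 to 0.77, unadjusted p = 0.0448, edgeR adjusted p = 0.14), 0.11 ± 0.20 after vehicle and 0.22 ± 0.21 after nanoceria. The average was 0.24 ± 0.11 (edgeR adjusted p = 0.102). Without nanoceria plus light 1, the library lowest for Chat in its group, the average was 0.29 and passed (edgeR adjusted p = 0.0306). With counts scaled to horizontal, bipolar and ganglion cell markers the estimate without injection was 0.44 and passed (edgeR adjusted p = 0.00913).

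Slc18a3, the vesicular acetylcholine transporter, lies within the first intron of Chat in mammals and serves the same starburst cells. It had 12.0 ± 3.86 CPM (SD, n = 5) in control and 12.5 ± 1.29 CPM (n = 7) in light damage, and its light estimate was 0.06 ± 0.18 without injection, -0.06 ± 0.19 after vehicle and 0.07 ± 0.20 after nanoceria. The strand setting of the authors' counting is not given in the sources used here, and sharing of reads between both genes was not tested.

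Calb2, for calretinin, ranged without light from 215 to 511 CPM (control), 281 to 440.5 CPM (vehicle) and 267 to 362 CPM (nanoceria). With light it ranged from 316 to 439 CPM without injection, 283 to 402 CPM after vehicle and 206 to 433 CPM after nanoceria. Light gave -0.09 ± 0.18, -0.08 ± 0.19 and 0.08 ± 0.20, and the averaged interval was -0.26 to 0.19.

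The AP-2 factor Tfap2a ranged from 45.1 to 59.9 CPM (control), 48.1 to 61.5 CPM (vehicle) and 39.9 to 51.9 CPM (nanoceria) without light, and from 42.1 to 59.4, 47.3 to 63.2 and 43.5 to 55.003 CPM in the lit groups in the same order. Tfap2b ranged from 171 to 239 CPM (control), 211 to 248 CPM (vehicle) and 183 to 214 CPM (nanoceria) without light, and from 194 to 272, 148 to 230.0 and 148 to 218 CPM in the lit groups in the same order. The light estimates of Tfap2a were 0.01 ± 0.09, 0.07 ± 0.10 and 0.08 ± 0.11. Those of Tfap2b were 0.11 ± 0.11, -0.20 ± 0.12 and -0.05 ± 0.13, with the sign differing between uninjected and injected rats. The difference between the response after vehicle and that without injection was -0.31 ± 0.16 for Tfap2b (edgeR adjusted p = 0.898).

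Pax6 was the steadiest member, with 1.33-fold between its highest and lowest library, against 3.04-fold for Chat. It was at 241, 252, 251, 202 and 259 CPM in control and 207 (lowest), 256 (median) and 269 (highest) CPM in light damage. Vehicle libraries had 214, 221, 249, 228 and 227 CPM and vehicle plus light libraries 263, 243, 202, 258 and 240.1 CPM. Nanoceria libraries had 215, 204, 223 and 208 CPM and nanoceria plus light libraries 246, 251, 217, 258 and 219.7 CPM. Averaged over the injection states light gave 0.10 ± 0.04, a difference of 1.07-fold (edgeR adjusted p = 0.0974). Without vehicle plus light 3 it was 0.11 and passed (edgeR adjusted p = 0.0340).

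**Figure D2:**
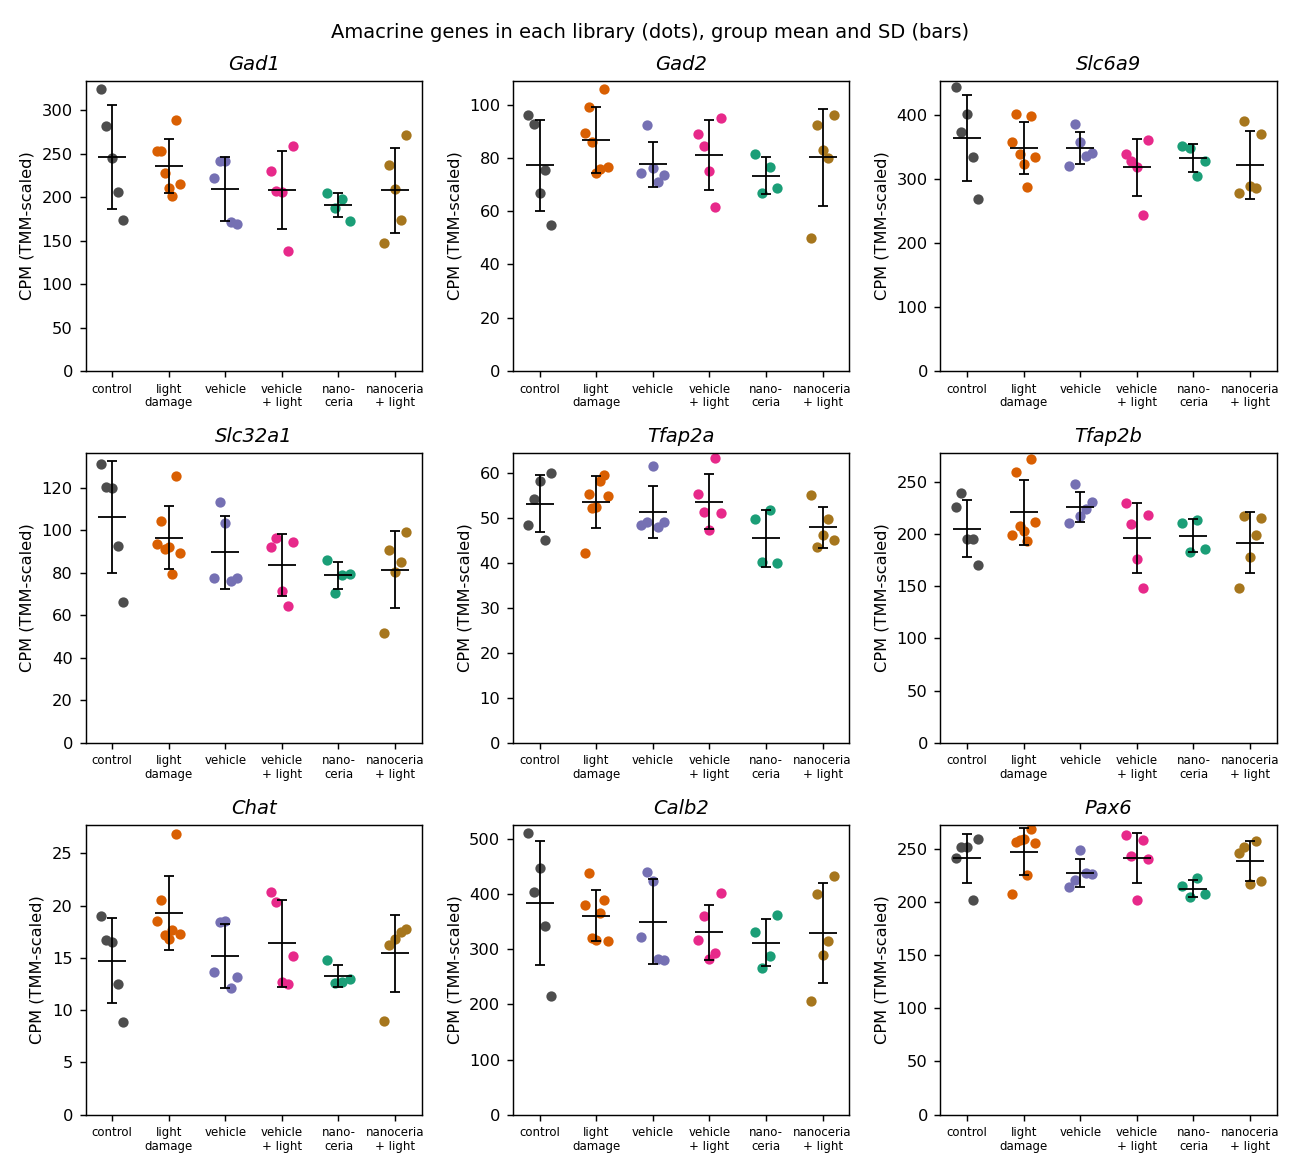
Scaled counts (CPM) of the 9 amacrine genes (1 panel each, axis from 0) in every library of the 6 groups; dots are libraries, the horizontal bar is the group mean and the error bar its SD. Each lit group overlaps its unlit partner in every panel, and control 6 and nanoceria plus light 1 are the lowest points for Chat, at 8.82 and 8.91 CPM.

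In the order of group means, nanoceria was lowest for Gad1, Gad2, Slc32a1, Tfap2a, Chat, Calb2 and Pax6. Control was highest for Gad1, Slc6a9, Slc32a1 and Calb2, light damage for Gad2, Chat and Pax6, vehicle plus light for Tfap2a and vehicle for Tfap2b. All 5 pairs of neighbouring groups overlapped in range for each of the 9 genes. For Chat, which had its highest mean in light damage and its lowest in nanoceria, these 2 groups at the ends of the order did not overlap. They were picked as the extremes of that order, and the share of all genes with such a gap was not computed. Only vehicle and nanoceria for Pax6 were neighbours whose means differed by more than the larger of their SDs. Levels are not compared between genes, since no transcript lengths of the build were used.

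Injection of nanoceria without light was the comparison with the lowest member median. In nanoceria against control all 9 estimates were negative, from -0.43 to -0.05 with a median of -0.18 (all genes, -0.04), and 0 of 9 passed where 2.46% of all genes did. Scaled to horizontal, bipolar and ganglion cell markers, Gad2, Slc6a9, Tfap2b and Chat were positive instead and the median of all genes was 0.11. Over all genes, 253 were then called higher and 10 lower in place of 313 and 132, and library size alone gave 341 and 34. Unadjusted p was under 0.05 for 2571 of 18094 genes, and for 3 members: Slc32a1, Pax6 (-0.18 ± 0.08) and Tfap2a (-0.23 ± 0.11), while Gad1 (-0.37 ± 0.18) lay just outside. The edgeR adjusted p of these 4 was 0.263 to 0.355. Markers of microglia and macrophages moved in this comparison: 6 of 8 measured rose, and their summed level was 150 to 204 CPM in control and 233 to 369 CPM in nanoceria. The endothelial and pericyte markers, of which 1 of 6 rose, summed to 188 to 248 CPM in control and 264 to 291 CPM in nanoceria. The 4 astrocyte markers, of which 0 passed, summed to 117 to 294 CPM and 321 to 465 CPM. These 3 of 13 marker lists, named after their values were seen, did not overlap between control and nanoceria, and the other lists did. The share of all genes without overlap was not computed. Vehicle overlapped nanoceria for the microglial (176 to 279 CPM) and astrocyte (217 to 582 CPM) sums. For the endothelial and pericyte sum (179 to 253 CPM) it did not. The part of these markers in the member estimates was not tested.

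Vehicle against control gave members from -0.24 to 0.14 (0 of 9 passed, 0.0221% of all genes), and nanoceria against vehicle gave -0.19 to -0.06 (0 of 9, and 0% of all genes). Nanoceria against vehicle and nanoceria against control share the nanoceria libraries, so their common sign is not independent. In lit retinas the estimates were -0.23 to 0.00 for vehicle plus light against light damage (0.122% of all genes called), -0.32 to -0.05 for nanoceria plus light against light damage (0.0608%) and -0.16 to 0.02 with nanoceria plus light set against vehicle plus light (0%). The interval of the members in the last of these spanned -0.49 to 0.38, or 0.712-fold to 1.304-fold. Of all 18094 genes, edgeR gave an unadjusted p under 0.05 for 1021 in nanoceria against vehicle and 257 between the lit nanoceria and vehicle groups. The DESeq2 Wald test called 40 and 4 there, and limma-voom with its library weights 1493 and 0. Of the 1493, 0 were left once the near-identical pairs were summed.

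No member's light response was found to differ between injection states. The difference between vehicle and no injection ranged from -0.31 to 0.06 over members (0.0442% of all genes called), that between nanoceria and no injection from -0.17 to 0.19 (0.409%), and that between nanoceria and vehicle from 0.01 to 0.16 (0%, with 415 genes at an unadjusted p under 0.05, 1 called by DESeq2 and 0 by limma-voom). Over the 3 tests the 95% intervals of the members reached from -0.83 to 0.73, so differences of up to about 0.563-fold or 1.66-fold are within them.

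Between libraries of the same group the members varied together. Deviations of log2 CPM from the group mean were compared over 29 libraries (each near-identical pair averaged), 225 relations in all. Gad1, Gad2, Slc32a1, Slc6a9, Chat, Calb2 and Tfap2b, a grouping made after the values were seen, gave 21 pairs with Pearson's r from 0.65 to 0.94 (Spearman's rho 0.65 to 0.90). The closest pair was Slc32a1 and Chat, with r = 0.94 and rho = 0.90 (permutation p = 1e-05, the smallest that 100000 permutations can give; adjusted p = 4.5e-05). Without the 2 libraries farthest from the median it was 0.898, and over the 21 pairs that value was 0.588 to 0.898. Tfap2a and Pax6 varied with each other (r = 0.71, rho = 0.69, permutation p = 6e-05, adjusted p = 0.000178, 0.629 without the 2 farthest) and had r of -0.36 to 0.24 with the other 7 (smallest adjusted p 0.131). The points share a library, its depth and the makeup of its tissue.

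Markers of other inner retinal neurons varied with the same 7 genes. Their r with the mean of the bipolar markers was 0.73 to 0.93, with horizontal markers 0.72 to 0.92 and with ganglion cell markers 0.69 to 0.98 (largest permutation adjusted p 0.000995 over these 21 relations). Calb2 and the ganglion cell markers were the closest, at r = 0.98 and rho = 0.95, and Tfap2b was closest to the bipolar (0.93) and horizontal (0.92) markers. With rods the 7 genes had r of 0.01 to 0.49, with Müller glia 0.45 to 0.75 and with microglia -0.40 to -0.22. Pax6 and Tfap2a had r of -0.50 and -0.48 with the rods, and Pax6 0.54 with the ciliary body and iris markers. What sets these shared deviations was not tested.

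**Figure D3:**
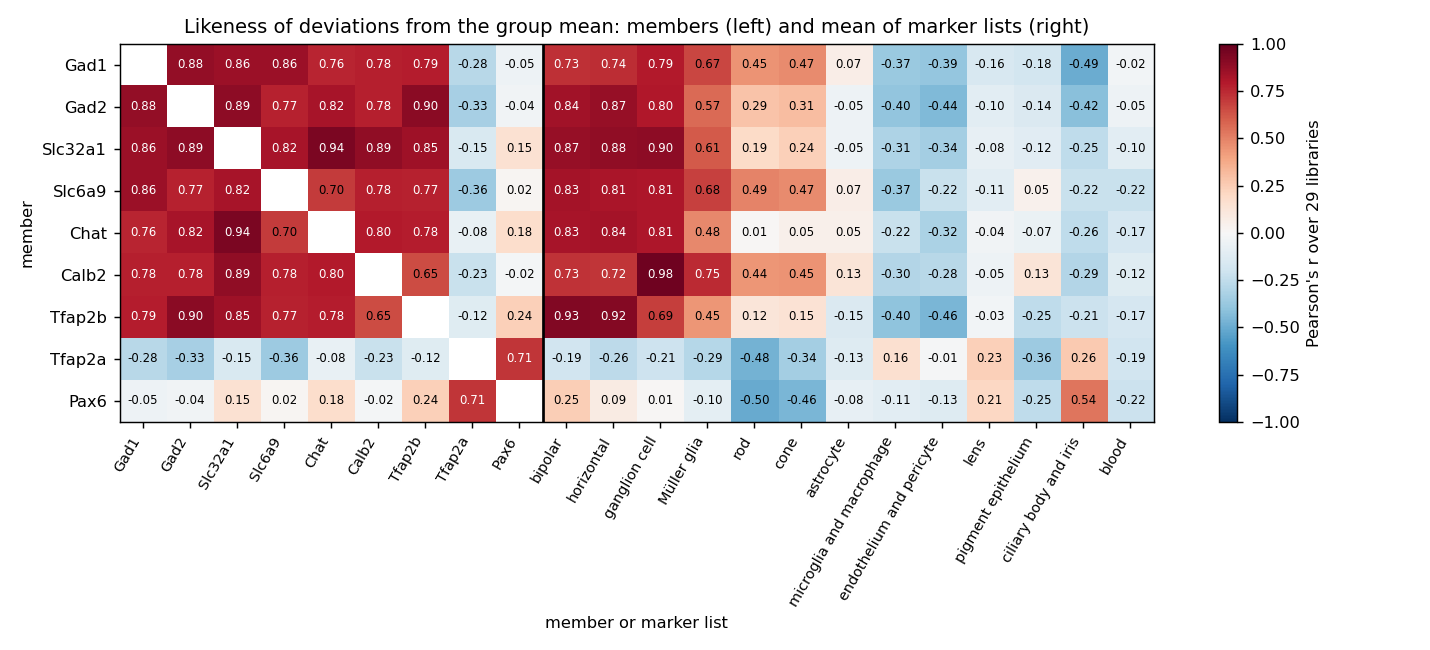
Pearson's r, over 29 libraries, between deviations from the group mean of each amacrine gene (rows) and those of the other members (left of the line) and of the mean of 13 marker lists (right). A set of 7 genes forms a block with r of 0.65 to 0.94, the bipolar, horizontal and ganglion cell columns are as high, and Tfap2a and Pax6 stand outside with r = 0.71 to each other.

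Libraries that were low for the 7 genes lay in different groups. All 7 genes were below their group mean in control 5 and 6, light damage 4 and 7, vehicle 4, vehicle plus light 4 and nanoceria plus light 1. The lowest averages were those of control 6, nanoceria plus light 1 and vehicle plus light 4, at -0.53, -0.52 and -0.37 (log2), and there Tfap2a and Pax6 were above their mean by 0.15, 0.13 and 0.17. In control 5 Tfap2a and Pax6 were below it too, by -0.24 on average. The bipolar markers deviated by -0.36, -0.36 and -0.43 in the 3 lowest libraries, the horizontal markers by -0.46, -0.56 and -0.51 and the ganglion cell markers by -0.74, -0.56 and -0.15. In control 1, light damage 6 and nanoceria plus light 5 the 7 genes were above the mean by 0.35, 0.30 and 0.30. Control and nanoceria plus light thus each held both a high and a low library.

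**Figure D4:**
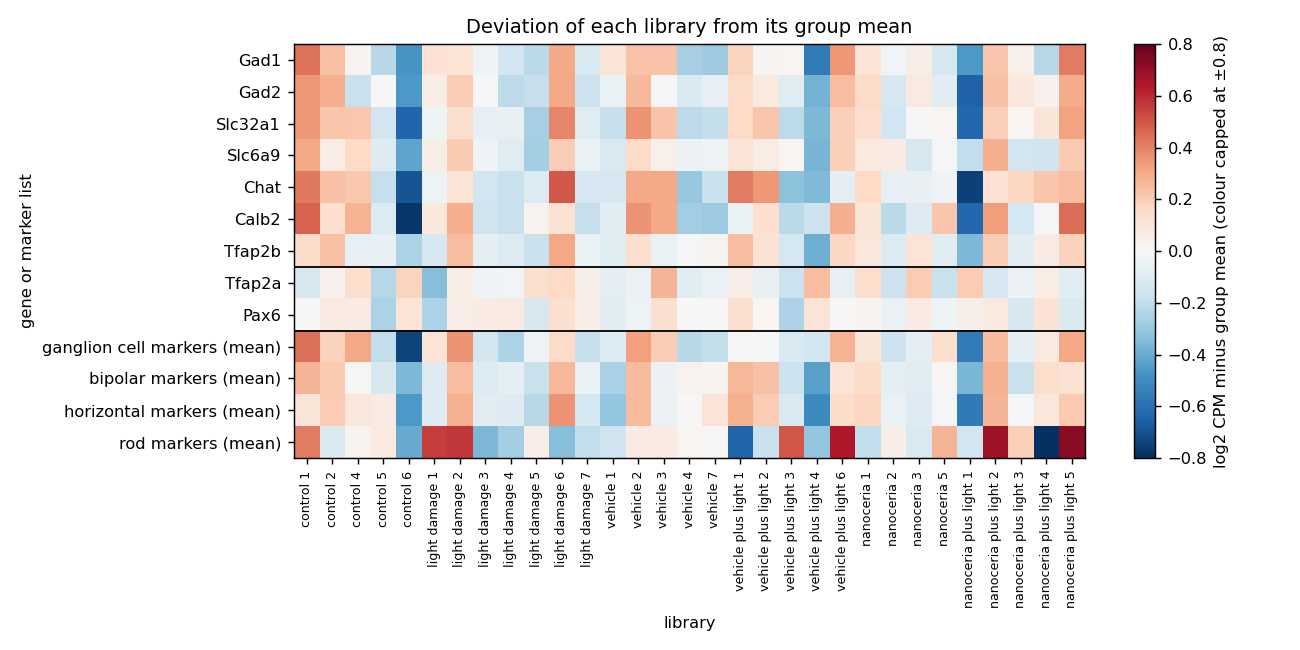
Log2 CPM minus the group mean in each of 31 libraries (columns) for 9 amacrine genes (upper rows) and the mean of 4 marker lists (lower rows), colour capped at ±0.8. Control 6 and nanoceria plus light 1 are low for the 7 upper genes, by -0.53 and -0.52 on average, and for the ganglion cell, bipolar and horizontal markers, but not for Tfap2a or Pax6.

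Of the genes that were not members and had a mean log2 CPM of at least 1 (13088 genes), those most like each member across 31 libraries were found by Pearson's r of the same deviations. Slc32a1 was most like Atcay and Chgb (both 0.98), Calb2 like Stmn3 (0.98) and Nefl (0.97), and Gad2 like Gria4 and Grm8 (both 0.96). Tfap2b was most like Pcdh17 (0.96) and Ebf3 (0.95), Chat like Zdhhc22 and Epha8 (both 0.95), Gad1 like Rgs8 (0.94) and Cbln2 (0.92), and Slc6a9 like Sez6l2 (0.94) and Bin1 (0.93). Tfap2a (Myo5b 0.88, Tnrc18 0.86) and Pax6 (Efnb1 and Ldb1, both 0.83) had looser neighbours.

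The start of 4 genes is shown because each held a match of 1 of the motifs searched. Gad1, Slc32a1 and Chat are of the 7 genes that varied together, and Pax6 is not. Gad2 and Slc6a9, also of the 7, had 0 matches of either motif and are not shown. Each sequence is the 250 bases before the RefSeq start in GRCr8, 5′ to 3′ on the gene's strand; the counts were made on rn6. Of the 9 members, 6 had an entry in the RefSeq table. Capitals mark the AP-2 motif GCCNNNGGC or the core TGACG of the cAMP response element, on either strand, both chosen after the sequences were seen.
Gad1 (chr3:75777202-75777451, plus strand): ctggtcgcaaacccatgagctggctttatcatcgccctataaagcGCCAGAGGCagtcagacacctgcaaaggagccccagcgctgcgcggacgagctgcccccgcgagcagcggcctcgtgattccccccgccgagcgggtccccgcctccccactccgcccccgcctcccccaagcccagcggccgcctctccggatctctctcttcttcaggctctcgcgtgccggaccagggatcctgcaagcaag
Slc32a1 (chr3:167686995-167687244, plus strand): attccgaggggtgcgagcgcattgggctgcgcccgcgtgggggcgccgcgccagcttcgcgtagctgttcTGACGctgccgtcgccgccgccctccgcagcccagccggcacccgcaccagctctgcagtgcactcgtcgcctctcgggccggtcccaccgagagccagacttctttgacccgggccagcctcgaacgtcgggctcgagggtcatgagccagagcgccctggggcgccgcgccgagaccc
Chat (chr16:7723417-7723666, minus strand): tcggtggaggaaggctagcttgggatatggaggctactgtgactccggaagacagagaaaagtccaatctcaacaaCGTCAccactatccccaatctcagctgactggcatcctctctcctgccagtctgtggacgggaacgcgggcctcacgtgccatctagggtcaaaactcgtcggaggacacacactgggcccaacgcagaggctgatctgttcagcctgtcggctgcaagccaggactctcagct
Pax6 (chr3:112590346-112590595, plus strand): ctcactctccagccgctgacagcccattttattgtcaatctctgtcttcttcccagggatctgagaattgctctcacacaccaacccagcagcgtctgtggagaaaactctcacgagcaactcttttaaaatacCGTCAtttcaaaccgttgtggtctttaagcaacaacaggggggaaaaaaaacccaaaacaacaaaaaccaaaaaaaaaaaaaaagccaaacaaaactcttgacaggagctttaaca
Gad1 holds 1 AP-2 match, 205 bases before its start, and no core element. The core element stands 180 bases before the start of Slc32a1, 174 before that of Chat and 116 before that of Pax6. The AP-2 letters occur in 12.6% and the core in 18.2% of 33469 RefSeq promoters of the same length. Outside the 7, only Pax6 had an entry, and the motifs and the grouping were both chosen after seeing the data. The matches therefore cannot show whether they follow the grouping by deviations, and a match is only a match of letters.

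Genes that act beside the members were held in 8 lists of 89 genes, of which 88 were measured, and some passed the test with light. Light alone raised 10 of 88 (11.4%; 11.9% of all genes rose) and lowered 3 (3.41%; 10.6%). After vehicle 6 rose (6.82%; 9.67%) and 7 fell (7.95%; 7.17%), and after nanoceria 10 rose (11.4%; 8.15%) and 1 fell (1.14%; 5.78%). Called in the same direction in all 3 light comparisons were 6 genes: Foxn4, Megf10, Gldc, Chrnb4, Slc18a2 and Aldh5a1. They are 6.82% of the 88, where 8.79% of all genes were called in the same direction in all 3. The shares that rose are near the background, and no difference between shares was tested.

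Foxn4, a forkhead factor that in the mouse specifies amacrine and horizontal cells during development, had few reads without light. It had 0 to 6 reads per library in control, 0 to 5 in vehicle and 2 to 5 in nanoceria. With light it had 9 to 97 reads in light damage, 29 to 101 in vehicle plus light and 26 to 90 in nanoceria plus light. The highest unlit value was 0.0748 CPM and the lowest lit one 0.251 CPM. Foxn4 is named as the highest called gene of its list, and the share of all genes so separated was not computed. The level stayed low, at 0.582 ± 0.179 CPM (SD, n = 7) in light damage, and the edgeR log2 fold changes of 4.25, 4.22 and 3.60 depend on few reads.

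Among cholinergic and starburst genes (8 measured), 2 rose with light alone, 2 rose and 1 fell after vehicle, and 3 rose after nanoceria. Megf10, a receptor that spaces starburst cells in the mouse, was at 47.3 ± 6.56 CPM (SD, n = 5) in control and 91.6 ± 7.06 CPM (n = 7) in light damage. Megf10 rose by 0.95 ± 0.14, 0.68 ± 0.15 and 0.56 ± 0.16 in the 3 states. Its call after nanoceria was lost without nanoceria plus light 3, nanoceria 2 or nanoceria 5. Fezf1, a zinc finger factor of starburst cells, rose by 0.77 ± 0.18 with light alone and by 0.75 ± 0.20 after nanoceria (lost without nanoceria 5), and Isl1, a homeobox factor of starburst, bipolar and ganglion cells, fell by 0.65 after vehicle. Of 12 acetylcholine receptor genes 2, 1 and 1 rose. Chrnb4, a nicotinic receptor subunit, rose by 1.01 ± 0.21, 0.88 ± 0.22 and 0.76 ± 0.24, the last lost without nanoceria plus light 2 or nanoceria 1, 3 or 5.

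In glycine handling, with 8 genes, 1, 1 and 2 rose. Gldc, the glycine-cleaving decarboxylase of mitochondria, was at 20.4 ± 4.12 CPM (SD, n = 5) in control and 37.7 ± 3.43 CPM (n = 7) in light damage, and rose by 0.88 ± 0.13, 0.73 ± 0.14 and 0.70 ± 0.15. The neuronal glycine transporter Slc6a5 was higher by 1.01 ± 0.33 with light after nanoceria (edgeR adjusted p = 0.0394). Its level was near the floor, at 0.117 CPM in nanoceria (44 reads in all) and 0.234 CPM in nanoceria plus light. The other group means were 0.210 CPM in control, 0.223 in vehicle, 0.200 in light damage and 0.243 in vehicle plus light. The call was lost in 13 of 20 alternatives, among them leaving out any of the 4 nanoceria libraries or nanoceria plus light 2, 3 or 4. In GABA handling and transport, with 7 genes, 1, 2 and 1 fell and none rose. Aldh5a1, whose enzyme makes succinate in the last step of GABA breakdown, fell by 0.40, 0.37 and 0.34. The call after vehicle was lost without vehicle plus light 4 or vehicle 2, and that after nanoceria without any of the 4 nanoceria libraries or without nanoceria plus light 1, 3 or 4. Slc12a5, the chloride exporter KCC2 that makes GABA inhibitory, fell by 0.44 after vehicle (lost without vehicle plus light 4).

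Of 17 GABA receptor genes 2 rose with light alone, 2 fell after vehicle and 2 rose after nanoceria. Gabrb1 fell by 0.61 after vehicle, a call lost without vehicle plus light 3 or 4 or vehicle 2 or 7. That call was also lost in a fit of only the groups compared and in limma-voom with near-identical pairs summed. The group means of Gabrb1 were 1.55 CPM in vehicle and 1.02 in vehicle plus light. They were 1.08 CPM in control, 1.06 in light damage, 1.16 in nanoceria and 1.07 in nanoceria plus light. Of 14 dopamine, peptide and nitric oxide genes, 1 rose in each state and 2 fell with light alone. Slc18a2, the vesicular monoamine transporter, rose by 0.40 ± 0.09, 0.59 ± 0.10 and 0.45 ± 0.11, and the neuropeptide Gal fell by 1.13 with light alone. The group means of Gal were 2.72 CPM in control, 1.24 in light damage, 1.71 in vehicle and 1.69 in vehicle plus light. Nanoceria had 1.09 CPM of Gal and nanoceria plus light 1.26, so only control stood apart. Of 5 genes of AII and calcium-binding cells 2 fell after vehicle, among them Calb1, the calbindin gene, by 0.60 (lost without vehicle 2). Of 17 measured amacrine transcription factor genes 2, 1 and 1 rose. Fitting only the groups compared ended the calls after nanoceria of Megf10, Fezf1, Chrnb4, Gldc, Slc18a2, Slc6a5 and Aldh5a1. Scaling by library size alone ended those of Aldh5a1, Slc12a5, Calb1 and Gabrb1 after vehicle. Scaling to horizontal, bipolar and ganglion cell markers ended the calls after nanoceria of Megf10, Chrnb4, Slc18a2 (edgeR adjusted p = 0.200) and Slc6a5, and that of Slc18a2 with light alone (edgeR adjusted p = 0.0975).

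**Figure D5:**
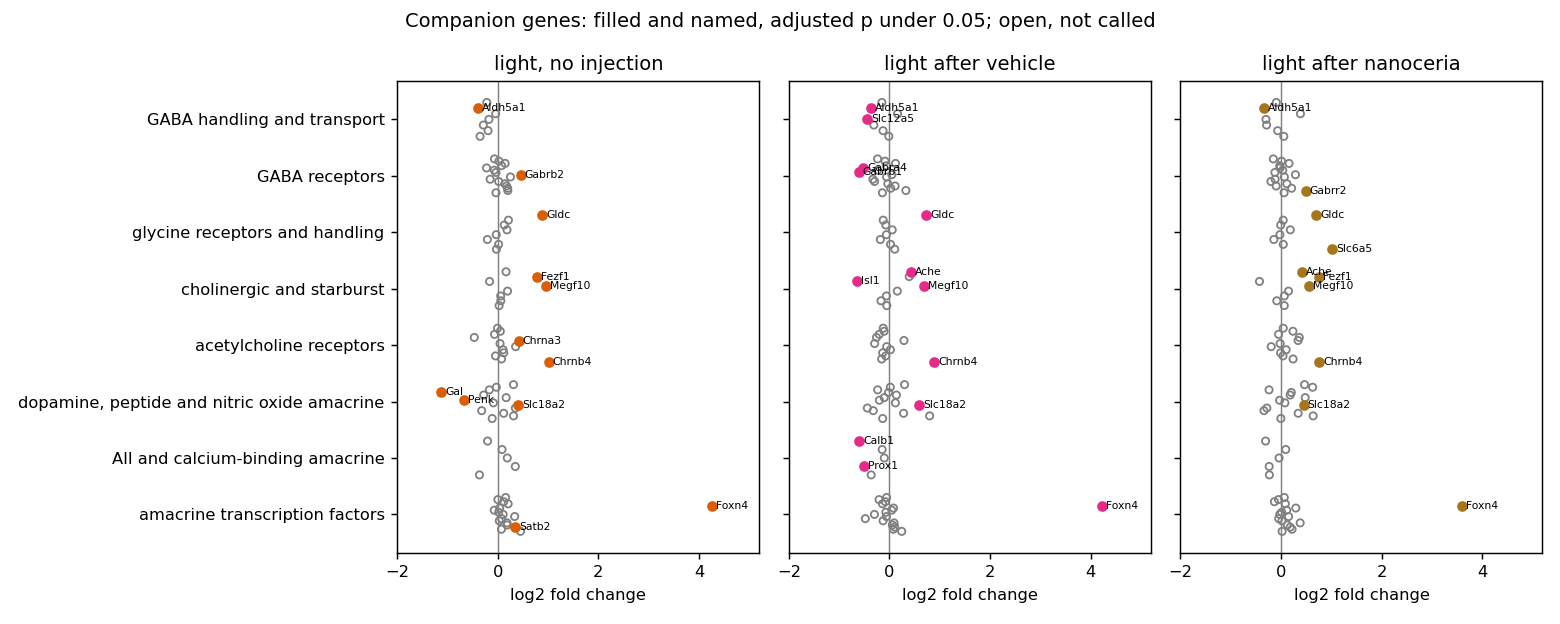
Log2 fold change with light of all but 1 of 88 genes related to amacrine cells, by list, without injection, after vehicle and after nanoceria; filled and named points have an edgeR adjusted p under 0.05, open points do not. Foxn4 stands apart at 4.25, 4.22 and 3.60, and most points lie near 0.

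In nanoceria against control 2 of 88 fell (2.27%; 0.73% of all genes fell and 2.46% were called in either direction), Gal by 1.32 and Penk, the enkephalin precursor, by 0.79 (edgeR adjusted p = 0.0259 and 0.00776). Both calls ended in a fit of only the groups compared, and that of Gal also with scaling to horizontal, bipolar and ganglion cell markers or without control 1, 2 or 5 or nanoceria 1, 2 or 5. Gal and Penk also fell with light alone. That comparison uses the same control libraries, so the falls are not independent. Of the lists, 0 of 88 genes passed in vehicle against control, nanoceria against vehicle or any comparison between lit groups. No light response of these 88 differed between injection states past the threshold.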

How the data were processed

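The deposited file holds raw counts of reads per gene made by the authors, whole numbers that are not normalised. Per the submitters' processing notes the tools were STAR 2.7.9a on rn6, Trimmomatic 0.39, R 4.0, DESeq2 1.30.1 and Subread 2.0.1 with featureCounts. The sources used here give neither the strand setting nor the annotation release. Genes were kept with filterByExpr (minimum count 10, total 15), scaled by TMM and tested in edgeR 4.0.16 (quasi-likelihood, R 4.3.3), with all 31 libraries in 1 robust fit, 1 coefficient per group and no covariate, and with the Benjamini-Hochberg adjustment over 18094 genes. The fit was also run on simulated counts of independent libraries with few changed genes. Those lack the near-identical pairs and the broad light response of the data, so nothing is concluded from that run. CPM are counts relative to the TMM-scaled library size, and log2 CPM has a prior count of 2. The p-values measure the spread between libraries labelled as biological replicates.

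The members and the gene lists were chosen with earlier results of these data known. Genes named were the members, the called genes of each related list with the highest and lowest fold change in each light comparison, and the 2 genes most like each member. Slc18a3, Penk and the other genes named beyond these were chosen after their values were seen. Of 201 listed genes 4 were not matched in the file. The values of 1 listed gene are not reported here, though the counts of its list include it. Alternatives were DESeq2 1.42.0 (scaling, and its Wald test), limma-voom (limma 3.58.1), library size alone, scaling to inner retinal marker lists, no filter, only the groups compared, a term for sex, a replicate block, near-identical pairs summed, a prior count of 0.5, and each library left out in turn. Every limma-voom fit gave each library a quality weight estimated from the data, which is not the plain form of the method. Limma-voom with near-identical pairs summed was added after seeing the data.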

Additional observations from a re-analysis of the deposited data

Results flagged for a closer look

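In 54 groups of 4 to 7 libraries (9 genes, 6 groups), 6 values lay far from the rest of their group by Dixon's 95% criterion, which chance alone meets in about 1 in 20 groups. All are log2 CPM. Gad2 was 6.529 in vehicle 2 (others 6.148 to 6.254) and 5.642 in nanoceria plus light 1 (others 6.323 to 6.585). Chat was 3.158 in nanoceria plus light 1 (others 4.024 to 4.153) and 4.747 in light damage 6 (others 4.076 to 4.361). Tfap2a was 5.396 in light damage 1, the library with the fewest counts (others 5.704 to 5.894), and 5.942 in vehicle 3 (others 5.587 to 5.62).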

How the results depend on the processing

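Counts of members called were recomputed 328 times over 13 comparisons, 11 settings and 31 libraries left out in turn, and 9 moved from 0. With scaling to the horizontal, bipolar and ganglion cell lists 1 member (Chat, 0.44, adjusted p = 0.00913) passed for light damage against control, and 1 (Chat, 0.24) for light averaged over injection states. With limma-voom 2 passed for vehicle against control (Gad1, -0.45; Slc32a1, -0.44), 1 for nanoceria against control (Slc32a1, -0.47, also with near-identical pairs summed) and 1 for averaged light (Chat, 0.27). The 2 vehicle calls were gone with the pairs summed. With library size alone 2 passed for averaged light (Chat, 0.32; Pax6, 0.17). That scaling moved the median of all genes from 0.02 to 0.09 for averaged light. Leaving out libraries gave 0 to 1 members for averaged light and 0 in every other comparison. The cause of these changes was not tested. No member was called in the main fit, so no called value could reverse, and 233 of 2952 uncalled ones changed sign. A prior count of 0.5 moved no member's mean log2 CPM by more than 0.00131. Light averaged over injection states uses all groups, so a fit of only the groups compared was not run for it.

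With the replicate number as a block, 0 members were called in any comparison. The 60 pairs of libraries with one number, from different groups, correlated from -0.353 to 0.381 (median 0.0780), 23 above 0.1. The 338 pairs with different numbers correlated from -0.527 to 0.551 (median -0.00581), 75 above 0.1. Libraries with one number were thus more alike in the median, and the difference was not tested. The labels do not say what libraries of one number share, so the main fit had no block.

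Over all genes, counts called moved past 1.5 times as follows. Scaling to inner retinal lists took light damage against control from 4074 to 1764, vehicle plus light against vehicle from 3046 to 1232, nanoceria plus light against nanoceria from 2520 to 916, averaged light from 6715 to 3669 and nanoceria against control from 445 to 263. Fitting only the groups compared gave 1103 for light after nanoceria, and limma-voom 5219 for light after vehicle. Nanoceria against control had 1276 with limma-voom (1192 with pairs summed), 727 with DESeq2 and 184 with the block. Vehicle against control had 4, and 2211 with limma-voom (11 with pairs summed), 52 with DESeq2, 8 with inner lists, 1 with the term for sex and 0 with only the groups compared. Vehicle plus light against light damage had 22, and 3 to 229 elsewhere, nanoceria plus light against light damage 11, and 5 to 89. The light response differed after vehicle for 8 genes, and for 5 to 118 elsewhere, and after nanoceria for 74, and for 16 to 275.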
